A study of Homo sapiens with 6 samples.

Results

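The genes described here encode cell-associated and secreted metalloproteases of leukocytes and their tissue inhibitors: the matrix metalloproteases MMP25, MMP9 and MMP14, the sheddases ADAM8, ADAM10 and ADAM17, and TIMP1, TIMP2 and TIMP3. They were chosen by name, and all 9 had a row among the 18798 genes of the count table. RNA was sequenced from 6 libraries of U937, an established human line of monocytic origin. The 3 ΔNSPs libraries came from clones, each a separate clone by the labels, depleted of the neutrophil serine proteases encoded by CTSG, ELANE and PRTN3, all at the same time. The 3 Control libraries came from separate lines transduced with control plasmids. All 6 were transduced, selected with geneticin and given no further treatment, and each ΔNSPs library stands for a single clone of this line.

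Matrix metalloproteases and ADAMs are zinc proteases that are made with an inhibitory propeptide. Matrix metalloproteases cut collagens, gelatins and other extracellular proteins, while ADAMs on the cell surface release the outer parts of membrane proteins such as TNF and its receptors. TIMPs block the zinc site. The serine proteases depleted in these clones are known from work on purified proteins to cleave TIMP1 and to help activate MMP9 outside the cell, and RNA counts do not measure such steps.

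The stretches that hold the catalytic zinc are shown because they are what the 6 proteases share. They are coding sequences from GENCODE transcripts on GRCh38, and capitals mark the codons of the 3 histidines that hold the metal.
MMP25: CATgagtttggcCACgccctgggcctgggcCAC
MMP9: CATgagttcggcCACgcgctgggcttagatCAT
MMP14: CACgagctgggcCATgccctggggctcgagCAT
ADAM8: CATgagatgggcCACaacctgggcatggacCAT
ADAM10: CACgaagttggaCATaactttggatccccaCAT
ADAM17: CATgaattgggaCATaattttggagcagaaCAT
The MMP25 stretch lies in exon 5 (chr16:3057068-3057100, plus strand), that of MMP9 in exon 8 (chr20:46012453-46012485, plus strand) and that of MMP14 in exon 5 (chr14:22843283-22843315, plus strand). The ADAM8 stretch lies in exon 11 (chr10:133271880-133271912, minus strand) and that of ADAM17 in exon 11 (chr2:9510078-9510110, minus strand), while that of ADAM10 is split by an intron between exons 9 and 10. Over these 33 bases MMP25 and MMP9 shared 26 bases and ADAM10 and ADAM17 shared 25. MMP9 and ADAM10 shared 16. ADAM8 shared 26 bases with MMP25 and 21 with ADAM17.

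In matrix metalloproteases a cysteine of the propeptide covers the zinc until the propeptide is cut. Its coding stretch is shown with the cysteine codon in capitals, since this switch sets how the 3 matrix metalloproteases are kept inactive.
MMP25: ccccgcTGCtccctgcctgac
MMP9: ccacggTGCggggtcccagac
MMP14: ccccgaTGTggtgttccagac
Membrane-anchored family members can be opened by furin-type convertases in the secretory pathway. Such enzymes cut after a run of arginine, any residue, arginine or lysine, and arginine, whose outer codons are in capitals below.
MMP25: AGGcggcgtCGC
MMP14: CGAaggaagCGC
ADAM10: AGGaaaaaaCGT
ADAM17: CGAgtgaaaAGA
A search of the coding sequence ahead of the zinc stretch found 1 match to this pattern in MMP25, MMP14 and ADAM17, 2 in ADAM8, 3 in ADAM10, of which the last is shown, and 0 in MMP9. A match is a description and not a measured cut.

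The TIMPs act through the first cysteines of the mature protein, which sit on the zinc of the protease. The coding bases from the first cysteine codon on are shown, with the codons of that cysteine and of the next in capitals.
TIMP1: TGCaccTGTgtcccaccccacccacagacg
TIMP2: TGCagcTGCtccccggtgcacccgcaacag
TIMP3: TGCacaTGCtcgcccagccacccccaggac
Over these 30 bases TIMP1 shared 18 with TIMP2 and 18 with TIMP3, and TIMP2 and TIMP3 shared 19.

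Library totals ran from 11476619 to 13782854 counts, and 3 counts in a library lie at 0.214 to 0.260 CPM, the unit of counts after TMM scaling of the library totals. CTSG and ELANE stood at 0.168% to 5.72% of their Control mean in the clones, and PRTN3 at 0.276%, 20.4% and 17.9% in ΔNSPs clones 1, 2 and 3. The Control level of PRTN3 was uneven, at 539, 147 and 244 CPM in lines 1, 2 and 3, against 0.857, 63.3 and 55.4 CPM in the clones. CTSG passed in edgeR (adjusted p = 0.0215) and DESeq2 (adjusted p = 3.33e-47). ELANE, with an edgeR log2 fold change of -5.56, did not pass in edgeR (adjusted p = 0.145) and passed in DESeq2 (adjusted p = 4.36e-05). PRTN3 did not pass in edgeR (adjusted p = 0.217) or DESeq2 (adjusted p = 0.210). All 12 monocytic markers had a row, with a summed level of 846 to 1224 CPM in ΔNSPs and 940.1 to 1037 CPM in Control. CD14, CD68 and CD86 were at most 1.14 CPM in any library. In the same list LYZ was at 95.6 to 229 CPM, CD4 at 125 to 357 CPM and FCGR1A at 4.98 to 7.37 CPM over the 6 libraries. Of the 9 monocytic markers tested, 0 passed in edgeR, and 3 were higher and 0 lower in ΔNSPs at an unadjusted p under 0.05, shares to be read against 9.23% and 8.6% of all tested genes. These were TYROBP (16.0 ± 13.5 CPM in ΔNSPs and 5.81 ± 1.31 CPM in Control), CSF1R (2.68 ± 1.63 CPM in ΔNSPs and 0.863 ± 0.666 CPM in Control) and ITGAM (8.50 ± 3.31 CPM in ΔNSPs and 3.98 ± 1.84 CPM in Control; SD, n = 3 each). Without clone 1, LYZ and TYROBP passed in edgeR as higher (adjusted p = 0.0274 and 0.0365). The part of these markers in the levels of the metalloproteases was not tested. Of 8 fibroblast and stromal markers 6 had a row, and their summed level was 7.07, 10.5 and 0.759 CPM in ΔNSPs clones 1, 2 and 3, against 6.94 to 6.99 CPM in Control. COL1A2, COL3A1 and PDGFRA had 0 counts in clone 3, and PDGFRA had at most 4 counts in any library. Of 6 epithelial markers 2 had a row, with a sum of 0.531 to 1.5 CPM in ΔNSPs and 0.852 to 1.81 CPM in Control. Of 8 lymphoid markers 4 had a row, with a sum of 24.2 to 28.0 CPM in ΔNSPs and 18.9 to 22.3 CPM in Control. A library stood apart in each group. Chi-square per degree of freedom was 29.9 and 26.1 between clone 1 and clones 2 and 3, against 18.0 between clones 2 and 3. It was 17.5 and 15.1 between Control line 1 and Control lines 2 and 3, against 7.13 between Control lines 2 and 3. For Control line 1, over tested genes, its deviation from the group mean correlated at 0.263 and 0.217 with those of clones 2 and 3 and at -0.432 with that of clone 1.

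Across the 9 genes, levels per kilobase of exon spanned from TIMP3 at the bottom to TIMP1 and MMP25 at the top in both groups. In ΔNSPs the order was MMP25 at 51.1 ± 6.29 CPM per kilobase, TIMP1 at 43.2 ± 5.82 and ADAM10 at 14.1 ± 3.23 (SD, n = 3, as for the levels below). TIMP2 followed at 6.40 ± 1.33, ADAM17 at 6.03 ± 0.416, ADAM8 at 0.941 ± 0.275, MMP9 at 0.529 ± 0.427, MMP14 at 0.341 ± 0.248 and TIMP3 at 0.0856 ± 0.0767 CPM per kilobase. In Control it was TIMP1 at 43.0 ± 5.08, MMP25 at 36.4 ± 1.11, ADAM10 at 12.6 ± 1.06, TIMP2 at 9.64 ± 1.97 and ADAM17 at 8.36 ± 1.5 CPM per kilobase. MMP9 came next at 2.30 ± 1.63, then ADAM8 at 0.573 ± 0.178, MMP14 at 0.216 ± 0.0265 and TIMP3 at 0.161 ± 0.0908 CPM per kilobase. MMP25 and TIMP1 changed places between the groups, as did ADAM8 and MMP9.

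Several neighbours in that order could not be separated by their libraries. In ΔNSPs the libraries of MMP25 and TIMP1 overlapped, as did those of TIMP2 and ADAM17 and each neighbouring pair from ADAM8 down to TIMP3. In Control the overlapping neighbours were TIMP2 and ADAM17, MMP9 and ADAM8, and MMP14 and TIMP3. The order rests on the merged length of all annotated exons, which is long for ADAM10 (16168 bases) and ADAM17 (10750 bases). With the length of the principal transcript, a choice made after the data were seen, TIMP1 came first in ΔNSPs too (74.6 against 59.3 CPM per kilobase for MMP25). ADAM17 then stood above TIMP2 in both groups, and above ADAM10 in Control (20.4 against 17.8 CPM per kilobase).

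**Figure D1:**
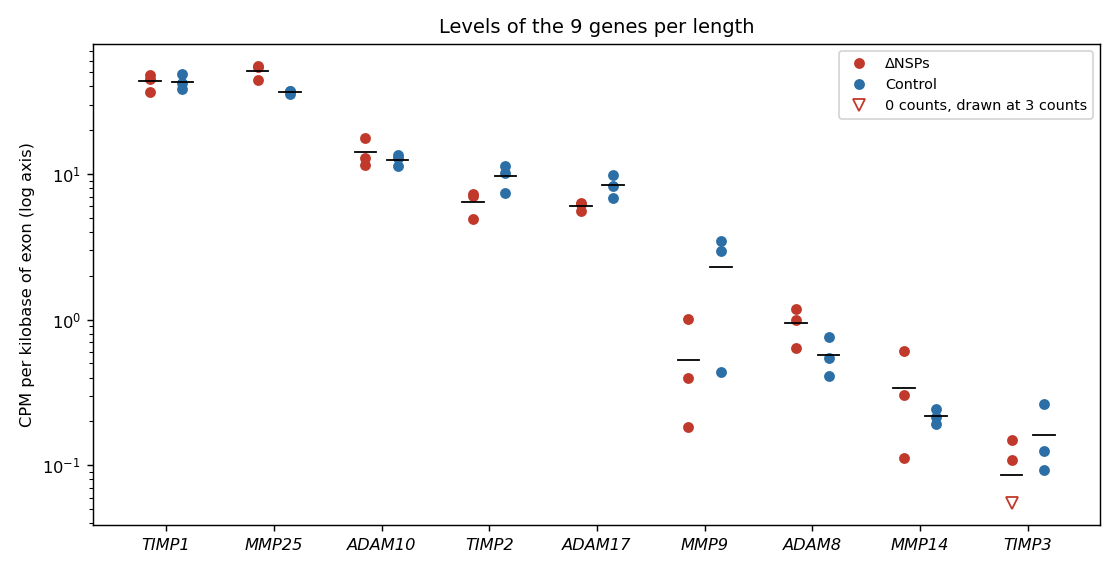
Level of each gene in CPM per kilobase of merged exon length, on a log axis; points are libraries, with ΔNSPs left of Control, and black lines are means of 3. TIMP1 and MMP25 lie between 35.1 and 55.3 CPM per kilobase, MMP9 has a Control library far below the other Control libraries, and the open triangle marks TIMP3 in ΔNSPs clone 3, which had 0 counts and is drawn at the level of 3 counts.

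The comparison of ΔNSPs with Control asked whether transcripts of these proteases and inhibitors differed once the serine proteases were depleted. With edgeR's quasi-likelihood test, 0 of the 8 genes with enough counts to be tested passed an adjusted p of 0.05 over all genes, where 0.0203% of 14797 genes passed. TIMP3 had too few counts to be tested. Before adjustment 4 of the 8 had a p under 0.05, MMP25 as higher and MMP9, ADAM17 and TIMP2 as lower in ΔNSPs, against 17.8% of all tested genes. Of these 4, MMP9 had an unadjusted p of 0.094 in limma voom and 0.067 in edgeR without clone 1. MMP25, ADAM17 and TIMP2 stayed under 0.05 in both fits. DESeq2, the more permissive tool here, called MMP25 as higher and none of the other 6 genes for which it gave an adjusted p. It called 3.98% of all genes, 1.91% as higher and 2.07% as lower. Limma voom called 0 of the 8, against 0.0135% of all genes. Groups did not overlap for 3 of the 8, MMP25 above and ADAM17 and TIMP2 below Control, against 23.9% of all tested genes. The median log2 fold change of the 8 was 0.085, against 0.0023 over all tested genes.

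MMP25 (ENSG00000008516; chromosome 16, 3046681 to 3060726) encodes leukolysin, a protease tied to the leukocyte surface by a lipid anchor and found in neutrophil granules and membranes. It was measured at 224, 181 and 228 CPM in ΔNSPs clones 1, 2 and 3, against 153, 145 and 153 CPM in Control lines 1, 2 and 3. The lowest clone lay above the highest Control line, and the Control lines lay closer to each other than the clones did. The mean was 211 ± 26.0 CPM in ΔNSPs and 150.3 ± 4.56 CPM in Control (SD, n = 3 each), 1.40 times as high, with a log2 fold change of 0.49 (SE 0.12). That difference missed the edgeR threshold (adjusted p = 0.171) and passed in DESeq2 (adjusted p = 0.0197). In these bulk libraries, a change in every cell and a change in the share of cells with the transcript cannot be told apart.

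The antisense gene MMP25-AS1 lies on the opposite strand and shares 1454 exon bases with MMP25, 35.2% of the exon length of MMP25. MMP25-AS1 was at 112, 91.3 and 108 CPM in ΔNSPs clones 1, 2 and 3, against 75.7, 68.2 and 75.2 CPM in Control lines 1, 2 and 3. Its log2 fold change was 0.51 ± 0.11 (SE), at adjusted p = 0.168 in edgeR, and clone 2 was the lowest clone for each gene of the pair. The strand setting of the counting is not given in the sources used here, so reads from the shared bases cannot be told apart.

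MMP9 (ENSG00000100985; chromosome 20, 46008908 to 46016561), gelatinase B, is a secreted protease of neutrophils and macrophages that degrades denatured collagen. It was low throughout, at 0.428, 2.35 and 0.928 CPM (6, 31 and 11 counts) in ΔNSPs clones 1, 2 and 3. In Control it was at 1.02, 8.12 and 6.94 CPM (12, 112 and 80 counts) in lines 1, 2 and 3. Control lines 2 and 3 lay above all clones, while Control line 1 lay below clone 2, so the groups overlapped.

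The ΔNSPs mean of MMP9 was 1.24 ± 0.997 CPM and the Control mean 5.36 ± 3.81 CPM (SD, n = 3 each), and the log2 fold change was -2.12 ± 0.79 (SE), at adjusted p = 0.237 in edgeR and 0.0595 in DESeq2. Without Control line 1 it was -2.60 (edgeR adjusted p = 0.159), and over each library left out it ran from -2.99 to -1.69 with 0 calls. Its spread was wide for its level: the range among Control lines, on the log2 scale, exceeded that of 99.1% of the 2475 tested genes within 2-fold of its mean CPM, and the range among clones that of 93.0%. SLC12A5-AS1, on the opposite strand, shares 430 exon bases with MMP9, 18.4% of the exon length of MMP9. SLC12A5-AS1 was at 4.93, 9.25 and 4.13 CPM in ΔNSPs clones 1, 2 and 3, against 6.65, 7.18 and 8.16 CPM in Control lines 1, 2 and 3. Its log2 fold change was -0.26 ± 0.32 (SE), at adjusted p = 0.689 in edgeR. For both genes clone 2 was the highest clone and line 1 the lowest Control line. Over all libraries SLC12A5-AS1 was highest in clone 2 and MMP9 in Control line 2. Reads from the bases shared with MMP9 cannot be told apart.

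MMP14 (ENSG00000157227; chromosome 14, 22836557 to 22849027) encodes a membrane-spanning protease that cuts collagen and, with TIMP2 as a bridge, activates MMP2. It was close to the limit of detection, at 0.500, 1.36 and 2.70 CPM (7, 18 and 32 counts) in ΔNSPs clones 1, 2 and 3. Control lines 1, 2 and 3 had 0.852, 1.09 and 0.954 CPM (10, 15 and 11 counts). The clones lay on either side of the Control lines. The log2 fold change was 0.63 ± 0.58 (SE), at adjusted p = 0.592 in edgeR, and without clone 3 it was -0.06. The range among clones exceeded that of 90.9% of the 2200 tested genes of like level, and the range among Control lines that of 10.6%.

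**Figure D2:**
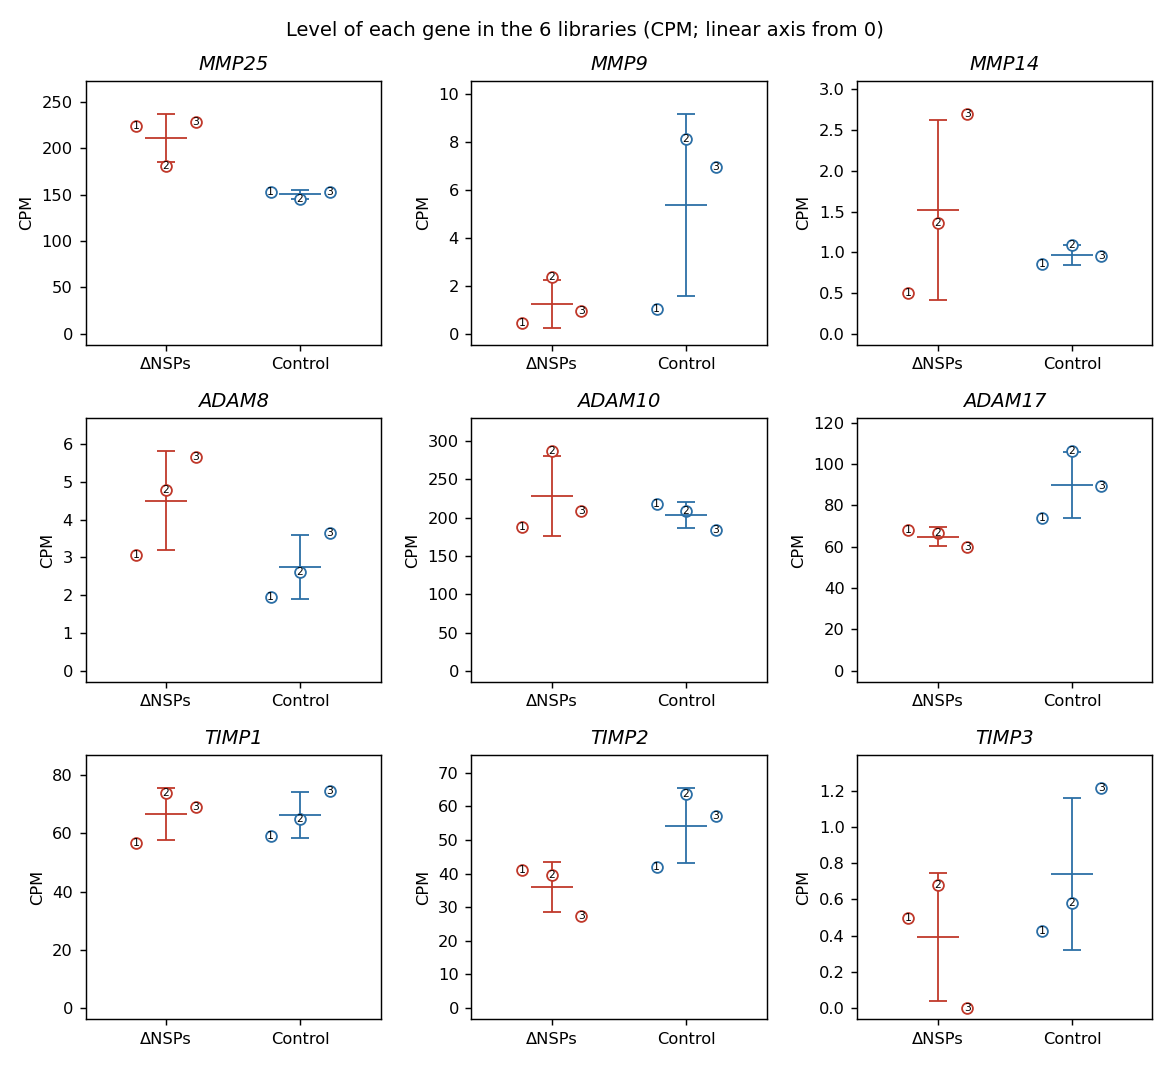
CPM of each of the 9 genes in the 6 libraries, on linear axes from 0, with ΔNSPs left of Control; numbered circles are clones or lines, and bars are the mean ± SD of 3. Every clone exceeds every Control line for MMP25, ADAM17 and TIMP2 are lower in all 3 clones, and MMP9 is high in Control lines 2 and 3.

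Among the sheddases, ADAM17 (ENSG00000151694; chromosome 2, 9488486 to 9556732) encodes the enzyme that releases TNF from the cell surface. It was at 68.0, 66.7 and 59.7 CPM in ΔNSPs clones 1, 2 and 3, against 74.1, 106 and 89.2 CPM in Control lines 1, 2 and 3. All 3 clones lay below the lowest Control line, which was line 1. The means were 64.8 ± 4.47 CPM in ΔNSPs and 89.8 ± 16.1 CPM in Control (SD, n = 3 each), 72.2% of the Control level. The log2 fold change was -0.47 (SE 0.14), short of the threshold in edgeR (adjusted p = 0.189) and DESeq2 (adjusted p = 0.0808). Here the Control lines were the more variable group: their range exceeded that of 94.1% of the 4328 tested genes of like level, and the range of the clones that of 25.6%.

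ADAM17 shares 1323 exon bases, 12.3% of its exon length, with IAH1 on the opposite strand, a gene of the esterase and lipase kind. IAH1 was at 51.1, 34.4 and 33.8 CPM in ΔNSPs clones 1, 2 and 3, against 47.9, 60.4 and 64.1 CPM in Control lines 1, 2 and 3. Its log2 fold change was -0.53 ± 0.19 (SE), at adjusted p = 0.221 in edgeR, and unlike ADAM17 its groups overlapped through clone 1. Reads from the shared bases cannot be told apart here either.

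ADAM10 (ENSG00000137845; chromosome 15, 58588807 to 58749978) encodes the sheddase of Notch receptors, IL6R and many adhesion proteins. It was at 188, 287 and 209 CPM in ΔNSPs clones 1, 2 and 3, against 217, 208 and 184 CPM in Control lines 1, 2 and 3. Clone 2 was high, and clones 1 and 3 lay within the Control range. The log2 fold change was 0.16 ± 0.16 (SE), at adjusted p = 0.624 in edgeR, and without clone 2 it was -0.03. Per kilobase of merged exon length, ADAM10 was above ADAM17 in all 6 libraries, by 1.84, 2.86 and 2.32 times in ΔNSPs clones 1, 2 and 3, against 1.95, 1.30 and 1.37 times in Control lines 1, 2 and 3. With the length of the principal transcript that order turned in Control lines 2 and 3: ADAM10 was then 1.07, 1.66 and 1.35 times ADAM17 in ΔNSPs clones 1, 2 and 3, against 1.13, 0.757 and 0.797 times in Control lines 1, 2 and 3.

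ADAM8 (ENSG00000151651; chromosome 10, 133262403 to 133276868) encodes a myeloid sheddase that cuts off its own propeptide and resists TIMPs. It was at 3.07, 4.77 and 5.65 CPM (43, 63 and 67 counts) in ΔNSPs clones 1, 2 and 3. Control lines 1, 2 and 3 had 1.96, 2.61 and 3.64 CPM (23, 36 and 42 counts). Clones 2 and 3 lay above all Control lines and clone 1 lay below Control line 3. The log2 fold change was 0.71 ± 0.34 (SE), at adjusted p = 0.310 in edgeR and 0.323 in DESeq2.

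Among the inhibitors, TIMP1 (ENSG00000102265; chromosome X, 47582313 to 47586789), a secreted partner of MMP9, had nearly equal means. It was at 56.5, 73.9 and 69.2 CPM in ΔNSPs clones 1, 2 and 3, against 59.2, 64.9 and 74.7 CPM in Control lines 1, 2 and 3. The means were 66.5 ± 8.97 CPM in ΔNSPs and 66.3 ± 7.83 CPM in Control (SD, n = 3 each), with a log2 fold change of 0.0057 ± 0.14 (SE), at adjusted p = 0.987 in edgeR. The groups overlapped, clone 1 was the lowest library and Control line 3 the highest. The ratio of MMP9 to TIMP1 therefore had the order of MMP9 over the libraries. Per kilobase, MMP9 was 0.500%, 2.10% and 0.885% of TIMP1 in ΔNSPs clones 1, 2 and 3, against 1.14%, 8.26% and 6.13% in Control lines 1, 2 and 3. Per kilobase of merged exon length MMP25 was 1.48, 0.915 and 1.23 times TIMP1 in ΔNSPs clones 1, 2 and 3, against 0.965, 0.835 and 0.764 times in Control lines 1, 2 and 3. With the length of the principal transcript it was below TIMP1 in all 6 libraries, at 0.993, 0.615 and 0.828 times in the clones, against 0.648, 0.561 and 0.514 times in the Control lines.

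TIMP2 (ENSG00000035862; chromosome 17, 78852977 to 78925387), the inhibitor that also helps MMP14 to activate MMP2, was below the Control range in each clone. It was at 41.2, 39.5 and 27.5 CPM in ΔNSPs clones 1, 2 and 3, against 42.0, 63.6 and 57.3 CPM in Control lines 1, 2 and 3. The groups did not overlap, by the narrow gap between clone 1 and Control line 1, and clone 3 was the lowest library. The means were 36.1 ± 7.46 CPM in ΔNSPs and 54.3 ± 11.1 CPM in Control (SD, n = 3 each), 66.4% of the Control level. The log2 fold change was -0.59 (SE 0.20), short of the threshold in edgeR (adjusted p = 0.210) and DESeq2 (adjusted p = 0.0905).

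AC022966.1, on the opposite strand, shares 367 exon bases with TIMP2. It was at 9.07, 11.1 and 9.70 CPM in ΔNSPs clones 1, 2 and 3, against 10.7, 17.7 and 15.1 CPM in Control lines 1, 2 and 3 (a log2 difference of -0.55 ± 0.22 SE, at adjusted p = 0.253 in edgeR). Its clone 3 was not the lowest, unlike TIMP2, and reads from the bases shared with TIMP2 cannot be told apart. The summed stromal markers were also lowest in clone 3, as given above. They were highest in clone 2 (10.5 CPM), where TIMP2 was below every Control line. In the Control lines the stromal sum was 6.94 to 6.99 CPM, while TIMP2 ran from 42.0 to 63.6 CPM. The part of the stromal markers in the TIMP2 level was not tested. Without clone 3 the log2 fold change of TIMP2 was -0.43.

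TIMP3 (ENSG00000100234; chromosome 22, 32801701 to 32863043) encodes the inhibitor that binds the extracellular matrix and is known as the main natural inhibitor of ADAM17. It had 7, 9 and 0 counts in ΔNSPs clones 1, 2 and 3, against 5, 8 and 14 counts in Control lines 1, 2 and 3. The 0 of clone 3 allows a level of up to 0.253 CPM, counting error alone, and the other 5 libraries held 0.426 to 1.21 CPM. The library at 0 was the one in which the stromal markers COL1A2, COL3A1 and PDGFRA were at 0 and the stromal sum was lowest. PDGFRA had at most 4 counts in any library, and COL1A1, DCN and PDGFRB had 4, 3 and 2 counts in clone 3. The integrin chain ITGAV, named after its values were seen, also had 0 counts there, against 142 and 162 in clones 1 and 2. The part of these genes in the TIMP3 level was not tested.

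**Figure D3:**
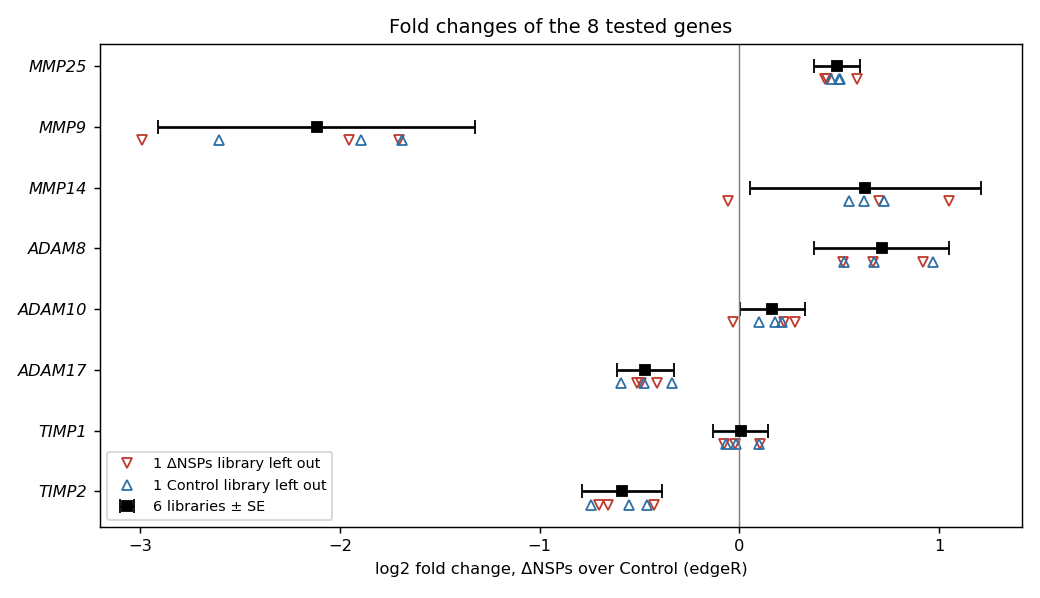
Log2 fold change of ΔNSPs over Control for the 8 tested genes; squares with bars are the edgeR value ± SE with 6 libraries, and open triangles are the values with a single ΔNSPs (pointing down) or Control (pointing up) library left out. MMP25 and ADAM8 stay above 0, MMP9, ADAM17 and TIMP2 stay below 0, and MMP14, ADAM10 and TIMP1 fall on either side of 0 depending on the library left out.

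**Figure D4:**
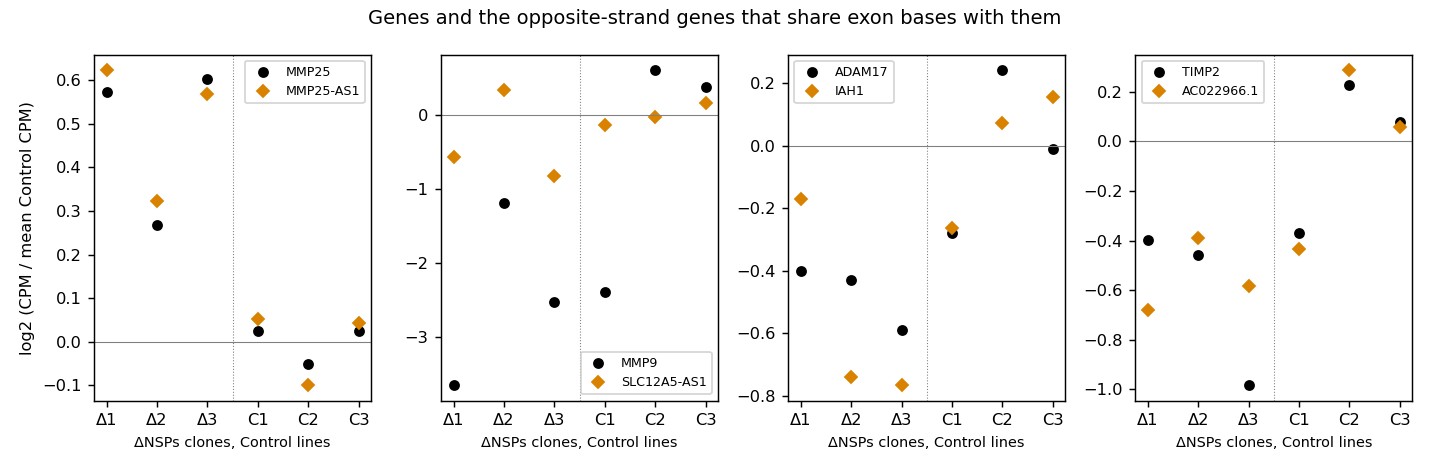
Log2 of CPM over the mean Control CPM, per library, for MMP25, MMP9, ADAM17 and TIMP2 (black circles) and the gene on the opposite strand that shares exon bases with each (orange diamonds), with ΔNSPs clones left of Control lines. MMP25 and MMP25-AS1 lie close together in every library, whereas SLC12A5-AS1 stays nearer to 0 than MMP9.

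Leaving out ΔNSPs clone 1 gave the largest number of edgeR calls over all genes, 6.17% of 15050 genes, and 0 of the 8 tested genes were among them. The nearest were MMP25 (adjusted p = 0.0758), TIMP2 (adjusted p = 0.0915) and ADAM17 (adjusted p = 0.0950) in that edgeR fit.

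For the 5 genes whose log2 CPM spanned over 1 across the libraries, the tested genes with the most alike profile were sought among 11364 genes that averaged 5 CPM or more. Likeness was the root mean square difference of centred log2 CPM over the 6 libraries. The smallest differences were those of TIMP2, with ATXN1 at 0.061 and RASD2 at 0.076. ADAM8 was nearest to ZNF335 (0.18) and AC020916.1 (0.18), MMP14 to APOBEC3G (0.22) and PTAFR (0.22), and TIMP3 to ZNF516 (0.25) and IL18 (0.29). For MMP9 they were AL121985.1 (0.65) and AL731563.2 (0.66). The difference is not scaled to a gene's own log2 span. That span was 1.21 for TIMP2, 1.46 for ADAM8, 2.12 for MMP14, 3.12 for TIMP3 and 3.82 for MMP9. The smallest difference rose in the same order, so it cannot rank how near the matches of different genes are.

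Other genes of the pathway were taken from 8 lists, of which 57 genes were tested. Of these, 0 passed in edgeR over all genes or in limma voom. DESeq2 gave an adjusted p for 50 of them and called 2 as higher and 1 as lower. Its shares over all genes were 1.91% higher and 2.07% lower. Without ΔNSPs clone 1 edgeR called 4 as higher and 4 as lower, against 3.04% higher and 3.13% lower of all 15050 genes in that fit. Among the higher were TNF (adjusted p = 0.0306), ITGB2 (adjusted p = 0.0209) and PTPRC (adjusted p = 0.0331) in that edgeR fit. The lower were MMP15 (adjusted p = 0.0180), ADAMTS10 (adjusted p = 0.00789), TSPAN10 (adjusted p = 0.0432) and NOTCH2 (adjusted p = 0.0212) in that edgeR fit. Before adjustment, 9 were higher and 5 lower with a p under 0.05, against 9.23% higher and 8.6% lower among all tested genes. The median log2 fold change of the 57 was -0.025, against 0.0023 over all tested genes.

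Of 20 other matrix metalloproteases 9 had a row and 5 were tested, with a median log2 fold change of -0.39. Of the 5, 0 had an unadjusted p under 0.05, against 17.8% of all tested genes. MMP2, gelatinase A and a target of MMP14, was at 32.0, 33.7 and 15.5 CPM in ΔNSPs clones 1, 2 and 3, against 33.4, 48.0 and 41.6 CPM in Control lines 1, 2 and 3 (a log2 difference of -0.60 ± 0.28 SE, at adjusted p = 0.305 in edgeR). As for TIMP2 and TIMP3, clone 3 was the lowest library. Of 18 other ADAMs 6 had a row and 4 were tested. Past an unadjusted 0.05, 1 was lower, against 8.6% of all tested genes. That was ADAM9, a widely expressed sheddase, at 41.7 ± 13.0 CPM in ΔNSPs and 60.4 ± 8.27 CPM in Control (edgeR adjusted p = 0.279). ADAM15, the most highly expressed of that list, was at 311 ± 43.5 CPM in ΔNSPs and 317 ± 19.0 CPM in Control.

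All 6 tested ADAMTS proteases, of 19 listed and 8 with a row, had negative log2 fold changes, where 49.7% of all tested genes did. ADAMTS17, named after its values were seen, was near 0, at -0.013 (SE 0.26). It turned to 0.080 in limma voom and 0.032 in edgeR without clone 1. The median of the 6 was -0.95, with -1.66 in limma voom and -0.71 in edgeR without clone 3. Past an unadjusted 0.05, 1 was lower, against 8.6% of all tested genes. That was ADAMTS13, which cuts von Willebrand factor, at 1.23 ± 0.151 CPM in ΔNSPs and 2.21 ± 0.423 CPM in Control (edgeR adjusted p = 0.238). ADAMTS10 was at 9.64, 0.682 and 1.18 CPM in ΔNSPs clones 1, 2 and 3, against 7.41, 13.1 and 14.4 CPM in Control lines 1, 2 and 3, so clones 2 and 3 were low and clone 1 lay within the Control range. ADAMTS7 was at 2.5, 4.17 and 0.0843 CPM in ΔNSPs clones 1, 2 and 3, and ADAMTS9 at 2.71, 3.71 and 0.169 CPM, against 4.34 to 4.94 CPM for ADAMTS7 and 3.58 to 8.24 CPM for ADAMTS9 in Control. Both, named after their values were seen, were lowest in clone 3, where the summed stromal markers were at 0.759 CPM, and the part of those markers was not tested. RECK, a membrane inhibitor of matrix metalloproteases and the gene tested of 5 other inhibitors, was at 24.0 ± 3.18 CPM in ΔNSPs and 29.3 ± 5.55 CPM in Control (edgeR adjusted p = 0.403).

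Among the 5 convertases, all tested, 1 was higher past an unadjusted 0.05, against 9.23% of all tested genes. The list had a median log2 fold change of -0.21. PCSK7 was at 35.6 ± 0.376 CPM in ΔNSPs and 27.1 ± 2.04 CPM in Control (a log2 difference of 0.40 ± 0.11 SE, at adjusted p = 0.178 in edgeR). FURIN, which cuts the convertase sites shown for MMP14 and ADAM17, was at 120.3 ± 21.8 CPM in ΔNSPs and 129 ± 3.94 CPM in Control (edgeR adjusted p = 0.723).

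The iRhoms and TspanC8 tetraspanins are partners that carry ADAM17 and ADAM10 to the cell surface. Of 9 listed, 7 were tested, with a list median of 0.018 on the log2 scale. Past an unadjusted 0.05, 1 was higher and 1 lower, against 9.23% and 8.6% of all tested genes. TSPAN10 was at 2.84 ± 1.5 CPM in ΔNSPs and 6.87 ± 1.03 CPM in Control (a log2 difference of -1.27 ± 0.40 SE, at adjusted p = 0.192 in edgeR), and fell in DESeq2 (adjusted p = 0.0486). TSPAN5 was at 25.0 ± 3.50 CPM in ΔNSPs and 19.3 ± 2.44 CPM in Control (edgeR adjusted p = 0.276), and TSPAN14, the most highly expressed, had a log2 fold change of 0.13 (SE 0.12).

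Cell surface partners had 10 tested genes of 12 listed, with a list median of 0.098 on the log2 scale. Past an unadjusted 0.05, 1 was higher and 1 lower, against 9.23% and 8.6% of all tested genes. These were the integrin chains ITGAM, with a log2 fold change of 1.09 ± 0.42 (SE), at adjusted p = 0.241 in edgeR, and ITGB1, with -0.32 ± 0.14 (SE), at adjusted p = 0.276 in edgeR. ITGB2, the most highly expressed, was at 774 ± 324 CPM in ΔNSPs and 542 ± 46.5 CPM in Control (edgeR adjusted p = 0.384).

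Known substrates of the sheddases had 19 tested genes of 30 listed, with a list median of 0.35 on the log2 scale. Past an unadjusted 0.05, 6 were higher and 1 lower (31.6% and 5.26%), against 9.23% and 8.6% of all tested genes. NOTCH1, which ADAM10 cuts during signalling, was at 77.7 ± 4.71 CPM in ΔNSPs and 50.1 ± 7.78 CPM in Control (a log2 difference of 0.64 ± 0.13 SE, at adjusted p = 0.160 in edgeR), and rose in DESeq2 (adjusted p = 0.00739). TNF, cut by ADAM17, was at 5.77 ± 3.89 CPM in ΔNSPs and 1.73 ± 0.336 CPM in Control (edgeR adjusted p = 0.181), and rose in DESeq2 (adjusted p = 0.0259). HBEGF, another ADAM17 substrate, differed by 0.84 ± 0.24 (SE) on the log2 scale, at adjusted p = 0.181 in edgeR. IL6R, the most highly expressed, was at 224 ± 9.85 CPM in ΔNSPs and 240.1 ± 12.2 CPM in Control (edgeR adjusted p = 0.602).

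**Figure D5:**
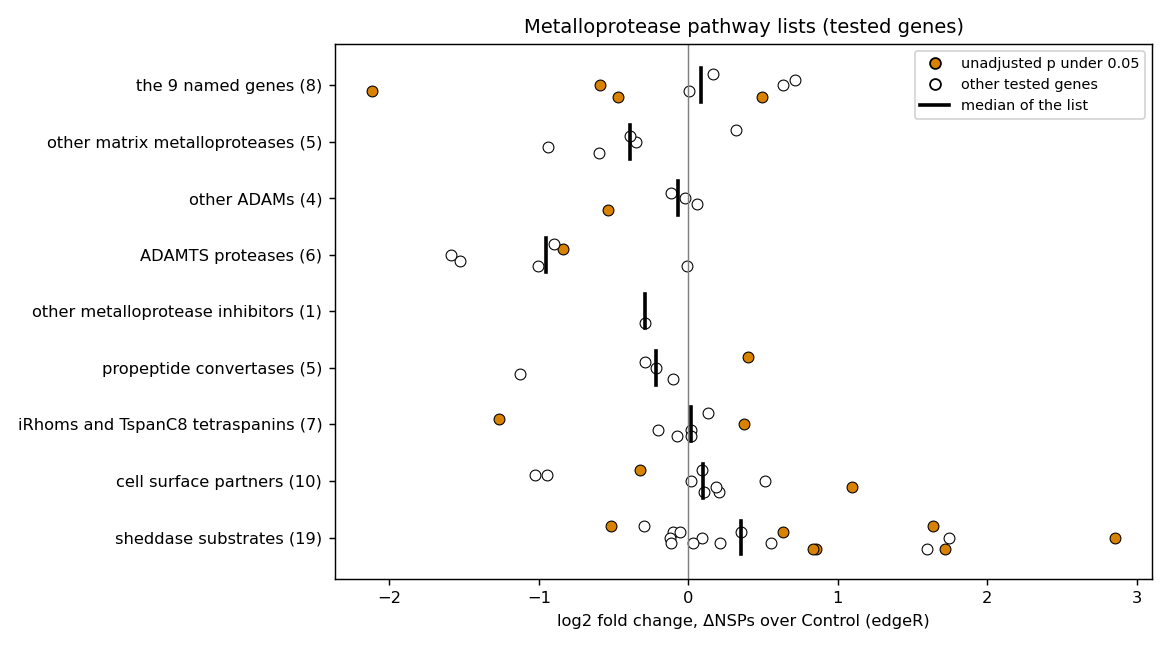
Log2 fold change of ΔNSPs over Control (edgeR) for the tested genes of each list, with the number tested in brackets; orange points have an unadjusted p under 0.05 and black bars are list medians. The 6 ADAMTS genes lie below 0, with ADAMTS17 at -0.013, and the 19 sheddase substrates have a median of 0.35.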

How the data were processed

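The authors deposited a table of raw counts per Ensembl gene for the 6 libraries. FastQC was run, reads were handled with HISAT2 2.0.0 and SAMtools 1.5.9, and HTSeq 0.11.1 was among the tools, on build GRCh38.p12, per the submitters' processing notes. The annotation release and the strand setting were not given in the sources used here. No listed gene had fewer than 10 counts over the 6 libraries. Sample titles gave the groups and the replicate numbers. Symbols, positions, exon lengths and transcript sequences came from GENCODE release 29, which matched 18771 of 18798 genes.

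Counts were tested with edgeR 4.0.16 in R 4.3.3: TMM scaling, the filterByExpr filter, non-robust quasi-likelihood fits, and two-sided p adjusted by Benjamini-Hochberg over all 14797 tested genes, with a threshold of 0.05. CPM are counts scaled to a common total after TMM, over the tested genes, and log2 CPM used a prior count of 2. Errors are SD over 3 libraries, and SE is the log2 fold change over the root of the F statistic. The limit from 0 counts covers counting error only. Alternatives were DESeq2 1.42.0, limma 3.58.1 (voom, quality weights), other size factors and filters, robust fits, the replicate number as a block, and each library left out. The 3 tools were also run on simulated counts in which 200 genes were changed by a known fold. That simulation held no outlying library, and no result here rests on it.

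The 9 genes and all lists were chosen with earlier results of these data known. Other genes were named by a rule. Per list it took those past the edgeR threshold, up to 4 with an unadjusted p under 0.05 in order of p, and the gene with the highest mean CPM. For genes spanning over 1 in log2 CPM it took the 2 most alike genes. Marker lists are given as sums, and for the monocytic list also by the genes with an unadjusted p under 0.05. A gene that the rule named in the substrate list is not reported here.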

Additional observations from a re-analysis of the deposited data

How the results depend on the processing

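The number of genes called over all genes was 3 in edgeR with 6 libraries, 515 in DESeq2, 1 with robust fits and 0 with the replicate number as a block, and ran from 0 to 928 when a library was left out (928 without ΔNSPs clone 1, 20 without Control line 1, 2 without clone 2, 1 without clone 3, and 0 without Control line 2 or 3). The number called of the 9 genes was 0 under every setting but DESeq2, which called 1, MMP25, with a log2 fold change of 0.49. TIMP1 turned to -0.011 with library totals alone and ran from -0.075 to 0.10 over the libraries left out, ADAM10 from -0.034 to 0.28 and MMP14 from -0.060 to 1.05. The cause was not tested. MMP25, MMP9, ADAM8, ADAM17 and TIMP2 kept their direction under all 14 alternatives. Deviations of same-numbered libraries correlated at -0.432, -0.161 and -0.14, and no clone correlated best with the Control line of its own number. Deviations from a group mean sum to 0, and a library stood apart in each group. These correlations therefore cannot decide whether the numbers pair the libraries. With the block 0 of the 9 genes were called, as in the main fit. The edgeR adjusted p of MMP25 was 0.405 with the block, against 0.171 without it. Over the 8 lists, DESeq2 called 2 genes as higher and 1 as lower, against 1.91% and 2.07% of all genes. Without clone 1 edgeR called 4 as higher and 4 as lower, against 3.04% and 3.13% of all genes in that fit. The median of the other matrix metalloproteases moved to -0.74 without clone 1 and that of the ADAMTS proteases to -1.66 in limma voom. Depth limited MMP14 and TIMP3, which had at most 32 and 14 counts in any library.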
